A study of Mus musculus with 15 samples.

Results

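Basement membranes are thin sheets of extracellular matrix, and 10 genes for their main components and for the microfibril protein fibrillin-1 were followed across mouse forebrain libraries. The set comprised laminin chains (Lama2, Lama4, Lama5, Lamb2 and Lamc1), the type IV collagen chain Col4a1, the linker nidogen-1 (Nid1), the heparan sulphate proteoglycans perlecan (Hspg2) and agrin (Agrn), and Fbn1. Each symbol matched 1 gene identifier, so the set holds 10 of the 55487 identifiers measured, and all 10 were among the 21780 genes abundant enough to be tested. The genes were chosen by their measured levels and differences in these same groups, so their own levels and differences are given as a description, and the counts of them called by the fit are printed beside the share of all genes with nothing read from them. Values are CPM, counts relative to the library total, after TMM scaling, which corrects for library size and composition, and differences are log2 fold changes with the standard error (SE) of the fit.

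RNA from frozen forebrains of wild-type mice had been turned into full-length cDNA and sequenced, giving 15 libraries in 5 groups of 3. The groups are called by their library names: IR (titled IR-BMT), PLX3X_CD30 (titled only as PLX treated), PLX3X_CD0 (titled PLX 3x), PLX1X (titled PLX 1x) and NT (no treatment). The labels used here spell out none of PLX, CD0, CD30 or IR-BMT, give no age or sex, and leave unsaid whether libraries stem from different animals, and each p-value therefore reflects only how far libraries scatter, which may be technical. Library totals ran from 19249641 counts in NT replicate 1 to 54801136 in PLX3X_CD0 replicate 3. The neuronal gene Snap25 stood at 2518 to 3408 CPM, so it was present in every library.

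Laminins are trimers of an alpha, a beta and a gamma chain that self-assemble into the first layer of a basement membrane. Type IV collagen forms a second network, which nidogens and perlecan connect to the laminin layer, while agrin binds laminin and the cell-surface receptor dystroglycan. In the brain these sheets surround the vessels between endothelium, pericytes and astrocyte endfeet and line the surface under the meninges. Fibrillin-1 is the backbone of microfibrils, which are anchored at basement membranes and hold the latent TGF-beta binding proteins.

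Promoter windows at annotated starts are printed for Fbn1, Lama5 and Agrn, the genes that differed most, and for Col4a1 and its neighbour Col4a2, which are transcribed away from each other. Which starts were in use was not measured. RefSeq windows of 300 bases (GRCm38.p6, 250 before to 50 after an annotated start) were matched for 8 of the 10 genes, all but Lama4 and Lamc1, with 9 windows in all because Agrn has 2. Capitals mark GC boxes (GGGCGG or CCGCCC) and CCAAT boxes (CCAAT or ATTGG), searched on both strands. Fbn1 lies at chr2:125506389-125506688 and Lama5 at chr2:180225810-180226109, both on the minus strand. The start in the Fbn1 window is 1555 bases inside the gene as annotated in GENCODE. The printed Agrn window, at the 5' end of the gene, lies at chr4:156197439-156197738 on the minus strand, Col4a1 at chr8:11312777-11313076 on the minus strand and Col4a2 at chr8:11312555-11312854 on the plus strand.
Fbn1: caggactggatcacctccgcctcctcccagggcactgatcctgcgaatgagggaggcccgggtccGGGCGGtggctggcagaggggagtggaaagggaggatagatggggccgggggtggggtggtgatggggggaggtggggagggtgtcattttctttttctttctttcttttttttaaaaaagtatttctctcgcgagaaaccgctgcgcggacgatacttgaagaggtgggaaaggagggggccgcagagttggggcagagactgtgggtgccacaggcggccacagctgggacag
Lama5: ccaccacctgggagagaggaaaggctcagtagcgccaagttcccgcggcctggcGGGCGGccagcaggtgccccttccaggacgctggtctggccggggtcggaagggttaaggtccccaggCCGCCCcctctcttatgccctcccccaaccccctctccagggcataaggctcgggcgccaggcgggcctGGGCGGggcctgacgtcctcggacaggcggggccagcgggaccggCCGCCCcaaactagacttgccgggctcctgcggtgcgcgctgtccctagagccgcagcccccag
Agrn: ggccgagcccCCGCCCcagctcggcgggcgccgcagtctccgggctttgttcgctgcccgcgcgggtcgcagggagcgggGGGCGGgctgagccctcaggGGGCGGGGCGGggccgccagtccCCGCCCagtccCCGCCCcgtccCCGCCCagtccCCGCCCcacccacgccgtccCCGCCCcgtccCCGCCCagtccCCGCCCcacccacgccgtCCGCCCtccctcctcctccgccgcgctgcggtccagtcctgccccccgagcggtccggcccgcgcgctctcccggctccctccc
Col4a1: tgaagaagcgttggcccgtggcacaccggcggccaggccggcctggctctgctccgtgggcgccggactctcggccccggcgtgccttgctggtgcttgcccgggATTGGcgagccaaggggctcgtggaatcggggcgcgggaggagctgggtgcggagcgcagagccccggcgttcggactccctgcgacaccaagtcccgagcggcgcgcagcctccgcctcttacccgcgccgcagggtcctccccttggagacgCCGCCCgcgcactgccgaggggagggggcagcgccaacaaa
Col4a2: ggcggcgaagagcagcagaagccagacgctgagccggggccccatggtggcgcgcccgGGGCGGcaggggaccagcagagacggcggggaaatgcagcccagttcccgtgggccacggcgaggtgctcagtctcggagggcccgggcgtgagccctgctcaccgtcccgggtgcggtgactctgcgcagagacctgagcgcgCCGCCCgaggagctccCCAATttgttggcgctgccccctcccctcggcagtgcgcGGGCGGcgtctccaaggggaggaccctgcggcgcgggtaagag
A GC box was present in a window of 7 of the 8 genes, and Lamb2 had none. That is a count of genes, with 2 windows for Agrn, and 35.7% is the share of all 32851 windows in the table. The start in the Lama2 window, 1 of the 7, is 2816 bases inside the gene as annotated in GENCODE. The printed Agrn window held 12 matches, some of them overlapping, and was 83.3% G and C, against a median of 52.7% over all windows. The other Agrn window, at chr4:156186210-156186509 on the same strand, held 2 matches and was 61.3% G and C. CCAAT boxes were found in the windows of Col4a1 and Nid1, against 37.4% of all windows. The letters CACGTG (an E-box, in 7.15% of all windows) and TGANTCA (an AP-1 motif, in 7.81%) were in none of the 8 genes' windows. The Col4a1 and Col4a2 windows share 78 bases. Matches are letters only and were not tested for binding.

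The 3 laminin alpha chains differed in how they stood across the groups. Lama5 (ENSMUSG00000015647, chr2:180176373-180225859), a chain of endothelial and epithelial basement membranes, read 7.50, 8.64 and 7.98 CPM in IR, 4.83, 4.85 and 4.42 CPM in PLX3X_CD30, 8.83, 9.04 and 6.96 CPM in PLX3X_CD0, 4.72, 5.43 and 4.68 CPM in PLX1X and 3.86, 3.67 and 5.03 CPM in NT. All 6 IR and PLX3X_CD0 libraries lay above all 9 libraries of PLX3X_CD30, PLX1X and NT, and those groups overlapped among themselves, as did IR and PLX3X_CD0. Lama5 averaged 8.04 ± 0.569 CPM in IR and 4.19 ± 0.739 CPM in NT (SD, n = 3 each), a log2 fold change of 0.93 ± 0.15. Its log2 fold change against NT was 0.16 ± 0.15 in PLX3X_CD30, 0.97 ± 0.14 in PLX3X_CD0 and 0.23 ± 0.15 in PLX1X.

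Lama2 (ENSMUSG00000019899, chr10:26980036-27619758), the alpha chain of muscle laminin that astrocytes and pericytes also make, ranged over 11.9 to 15.9 CPM in IR, 11.0 to 12.6 CPM in PLX3X_CD30, 13.1 to 15.8 CPM in PLX3X_CD0, 10.6 to 11.7 CPM in PLX1X and 12.1 to 13.5 CPM in NT. IR and NT overlapped, and the PLX3X_CD0 libraries lay above those of PLX1X and PLX3X_CD30. The log2 fold change was 0.39 ± 0.11 for PLX3X_CD0 against PLX1X and 0.10 ± 0.11 for IR against NT. Lama4 (ENSMUSG00000019846, chr10:38965515-39110188), the alpha chain typical of endothelium, ranged over 9.58 to 10.4 CPM in IR, 8.60 to 9.26 CPM in PLX3X_CD30, 10.7 to 10.9 CPM in PLX3X_CD0, 7.67 to 10.4 CPM in PLX1X and 6.96 to 10.5 CPM in NT. Its PLX3X_CD0 libraries were the highest of all groups and agreed closely with each other, and NT spread widest. The largest log2 fold change of Lama4 among the 7 comparisons was 0.31 ± 0.13, for PLX3X_CD0 against NT.

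Lamb2 and Lamc1, the beta and gamma chains that pair with these alpha chains, were more abundant than any of the alpha chains. Per kilobase of the longest transcript they averaged 9.28 and 4.62 CPM over all libraries, and the alpha chains averaged 0.529 (Lama5), 1.33 (Lama2) and 1.58 (Lama4) CPM per kilobase. Lamb2 (ENSMUSG00000052911, chr9:108479736-108490530) read 58.6, 71.1 and 63.5 CPM in IR, 52.1, 46.0 and 45.7 CPM in PLX3X_CD30, 57.2, 60.8 and 52.1 CPM in PLX3X_CD0, 47.0, 44.9 and 52.1 CPM in PLX1X and 31.0, 55.9 and 45.9 CPM in NT. IR libraries all lay above NT, but NT itself ran over a wide range, with NT replicate 1, the shallowest library, lowest. The log2 fold change of Lamb2 in IR against NT was 0.53 ± 0.16, and it was 0.20 once the offset described with the length trend was added.

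Lamc1 (ENSMUSG00000026478, chr1:153218922-153332786) read 34.2, 38.0 and 42.3 CPM in IR, 35.0, 34.5 and 35.3 CPM in PLX3X_CD30, 35.6, 38.7 and 38.2 CPM in PLX3X_CD0, 36.0, 34.0 and 36.3 CPM in PLX1X and 26.4, 33.4 and 29.985 CPM in NT. Every treated library stood above every NT library, and the treated groups overlapped apart from PLX3X_CD0, whose libraries all lay above those of PLX3X_CD30. Lamc1 averaged 38.2 ± 4.02 CPM in IR and 29.9 ± 3.54 CPM in NT (SD, n = 3 each). Its log2 fold changes against NT were small and alike in size, at 0.35 ± 0.08 in IR, 0.22 ± 0.08 in PLX3X_CD30, 0.32 ± 0.08 in PLX3X_CD0 and 0.24 ± 0.08 in PLX1X.

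**Figure D1:**
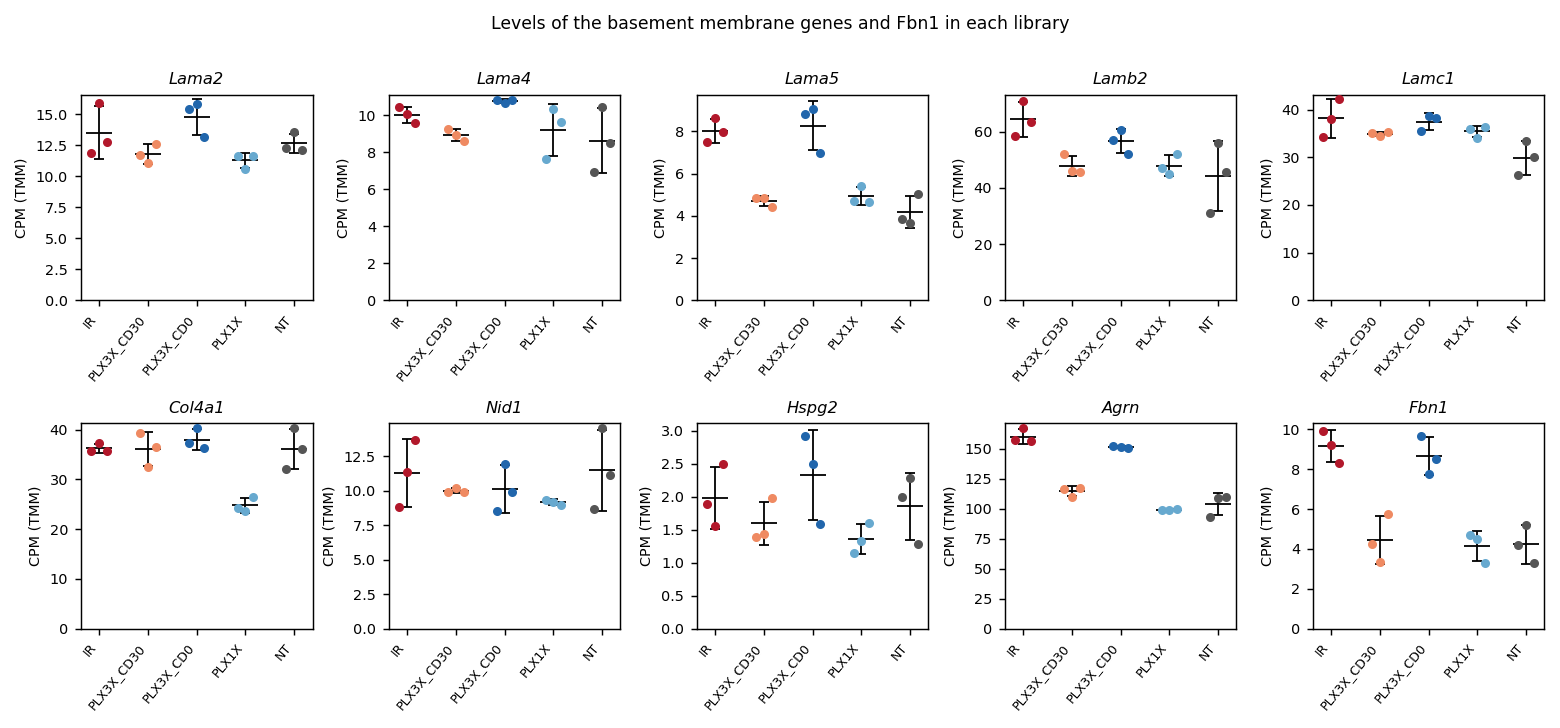
CPM after TMM scaling (vertical axes, linear, from 0) of the 10 genes in each of the 15 libraries, grouped along the horizontal axes. Points are libraries and black bars give mean ± SD of 3; Fbn1, Lama5 and Agrn stand high in IR and PLX3X_CD0 (Fbn1 at 7.78 to 9.93 CPM, against at most 5.75 CPM in any other library), and Col4a1 stands low in PLX1X (23.7 to 26.5 CPM).

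Col4a1 (ENSMUSG00000031502, chr8:11198423-11312826), which with Col4a2 forms the most widespread type IV collagen, was the gene set apart by PLX1X. It read 35.8, 37.3 and 35.7 CPM in IR, 39.3, 32.5 and 36.5 CPM in PLX3X_CD30, 37.3, 40.4 and 36.3 CPM in PLX3X_CD0, 24.2, 23.7 and 26.5 CPM in PLX1X and 32.2, 40.3 and 36.0 CPM in NT. The 3 PLX1X libraries lay below the other 12, which overlapped across their groups. Col4a1 averaged 24.8 ± 1.50 CPM in PLX1X and 36.2 ± 4.05 CPM in NT (SD, n = 3 each), a log2 fold change of -0.55 ± 0.08. PLX3X_CD0 stood 0.62 ± 0.08 above PLX1X on the same scale, and the log2 fold changes of the other treated groups against NT lay between -0.01 and 0.07.

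Nid1 (ENSMUSG00000005397, chr13:13437551-13512269) ranged over 8.80 to 13.7 CPM in IR, 9.89 to 10.2 CPM in PLX3X_CD30, 8.53 to 12.0 CPM in PLX3X_CD0, 8.99 to 9.37 CPM in PLX1X and 8.72 to 14.6 CPM in NT. NT held the highest library and also a low value of 8.72 CPM, so every group overlapped with it. Hspg2 (ENSMUSG00000028763, chr4:137468769-137570630) was the scarcest of the 10, with 42 to 144 counts per library. It ranged over 1.56 to 2.49 CPM in IR, 1.38 to 1.98 CPM in PLX3X_CD30, 1.59 to 2.92 CPM in PLX3X_CD0, 1.15 to 1.60 CPM in PLX1X and 1.29 to 2.28 CPM in NT. With so few counts its SE was 0.27 or 0.28 in every comparison, and the largest log2 fold change, 0.78 ± 0.27 for PLX3X_CD0 against PLX1X, came from groups that overlapped.

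Agrn (ENSMUSG00000041936, chr4:156165290-156197488) was the most abundant of the 10, with 42.7% of their summed CPM and 14.6 CPM per kilobase. Agrin organises the postsynaptic side of the neuromuscular junction and is also a component of the membrane around brain vessels. Agrn read 157, 167 and 156 CPM in IR, 116, 109.6 and 117 CPM in PLX3X_CD30, 153, 151 and 150.2 CPM in PLX3X_CD0, 99.0, 99.0 and 99.3 CPM in PLX1X and 92.8, 109 and 109 CPM in NT. The order of the groups was IR, PLX3X_CD0, PLX3X_CD30, NT and PLX1X from high to low, and neighbours in that order did not overlap except NT and PLX1X. Its coefficient of variation between replicates ran from 0.188% in PLX1X to 9.03% in NT. Agrn averaged 160.0 ± 6.21 CPM in IR and 104 ± 9.36 CPM in NT (SD, n = 3 each), and its log2 fold changes against NT were 0.62 ± 0.06 in IR, 0.14 ± 0.06 in PLX3X_CD30, 0.54 ± 0.06 in PLX3X_CD0 and -0.07 ± 0.06 in PLX1X.

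Fbn1 (ENSMUSG00000027204, chr2:125300594-125507993) had the largest differences. It read 9.93, 9.22 and 8.32 CPM in IR, 4.25, 3.34 and 5.75 CPM in PLX3X_CD30, 9.69, 7.78 and 8.51 CPM in PLX3X_CD0, 4.69, 4.50 and 3.30 CPM in PLX1X and 4.19, 5.23 and 3.28 CPM in NT. All 6 IR and PLX3X_CD0 libraries lay above the other 9, with no overlap, and PLX3X_CD30, PLX1X and NT overlapped with each other. Fbn1 averaged 9.16 ± 0.809 CPM in IR, 4.45 ± 1.22 CPM in PLX3X_CD30, 8.66 ± 0.961 CPM in PLX3X_CD0, 4.16 ± 0.752 CPM in PLX1X and 4.23 ± 0.973 CPM in NT (SD, n = 3 each). That is a fitted 2.17-fold difference for IR against NT (log2 1.12 ± 0.20) and a 2.05-fold difference for PLX3X_CD0 against NT (log2 1.04 ± 0.20). In the remaining comparisons PLX3X_CD0 stood 1.05 ± 0.19 above PLX1X, PLX3X_CD30 stood at -0.96 ± 0.19 relative to PLX3X_CD0, and IR stood 1.04 ± 0.19 above PLX3X_CD30, all in log2. The opposite strand carries the annotated gene Gm9913, which shares 20.1% of the exonic bases of Fbn1, and reads of overlapping genes cannot be told apart without strand. Gm9913 itself had 0 to 3 counts in any library.

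**Figure D2:**
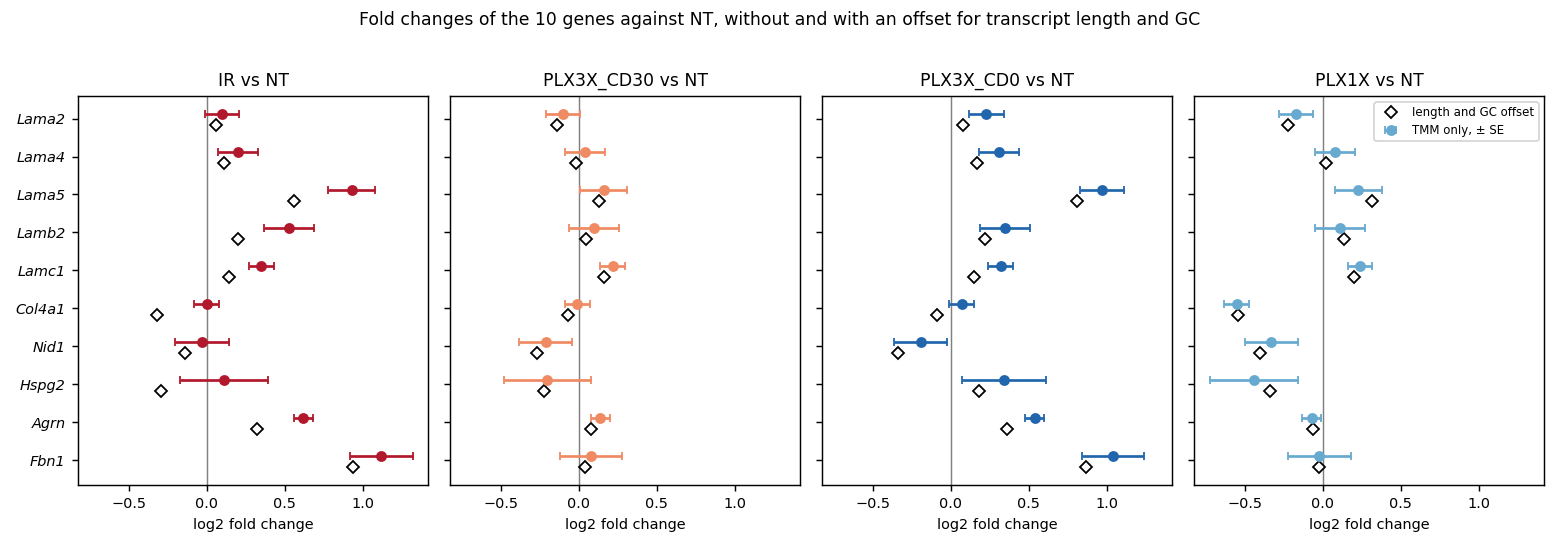
Log2 fold change (horizontal axes) of the 10 genes (vertical axis) in IR, PLX3X_CD30, PLX3X_CD0 and PLX1X, each against NT. Filled points with bars are the TMM fit ± SE and open diamonds the fit corrected for transcript length and GC; Fbn1 in IR lies at 1.12 without and 0.94 with the offset, and Agrn at 0.62 and 0.32.

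Read as a set, the genes split into Fbn1, Lama5 and Agrn, which stood high in IR and PLX3X_CD0, Col4a1, which stood low in PLX1X, and the others. At an adjusted p of 0.05 in the edgeR fit, 5 of the 10 were called higher and none lower in IR against NT (Fbn1, Lama5, Agrn, Lamc1 and Lamb2), beside 30.6% of all tested genes called in either direction, with 15.1% higher and 15.4% lower. In PLX3X_CD30 against NT none was called by edgeR, beside 6.57% of all genes, with 4.74% higher and 1.84% lower. At an unadjusted p of 0.05, 2 of the 10 (Lamc1 and Agrn, both higher) passed there by edgeR and 2 by DESeq2, which also called none. In PLX3X_CD0 against NT 4 were called higher (Fbn1, Lama5, Agrn and Lamc1) and none lower, beside 21.7% of all genes, with 12.2% higher and 9.53% lower. In PLX1X against NT 1 was called higher (Lamc1) and 1 lower (Col4a1), beside 18.1% of all genes, with 9.97% higher and 8.12% lower. Some calls changed with the libraries fitted, and the cause was not tested. Without NT replicate 2, Lama4 was also called in IR (0.37) and PLX3X_CD0 (0.47), Lamb2 in PLX3X_CD0 (0.55) and Lamc1 in PLX3X_CD30 (0.31). The call of Lamb2 in IR was lost without NT replicate 3 (0.55), IR replicate 2 (0.46) or IR replicate 3 (0.55), and that of Lamc1 in PLX1X without any library but NT replicate 2 (0.18 to 0.27). With only the 6 libraries compared, Lamb2 in IR (0.53), Lamc1 in PLX3X_CD0 (0.32) and Lamc1 in PLX1X (0.24) were not called. These contrasts chose the genes, so nothing is read from the counts.

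Between treated groups, PLX3X_CD0 against PLX1X had 4 of the 10 called higher (Fbn1, Lama5, Agrn and Col4a1), beside 2.46% of all genes in either direction, with 1.79% higher and 0.670% lower. PLX3X_CD30 against PLX3X_CD0 had 3 called lower (Fbn1, Lama5 and Agrn), beside 3.80% in either direction, with 1.87% higher and 1.93% lower, and the call of Fbn1 was lost without PLX3X_CD30 replicate 2 (-0.79). IR against PLX3X_CD30 had 3 called higher (Fbn1, Lama5 and Agrn), beside 16.5% in either direction, with 7.63% higher and 8.88% lower. The median log2 fold change of the 10 genes was 0.27 in IR, 0.06 in PLX3X_CD30, 0.33 in PLX3X_CD0 and -0.04 in PLX1X, each against NT, and that of all tested genes was -0.047, -0.022, -0.028 and -0.045 in the same order. These 4 comparisons share the NT libraries.

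All 10 genes have long transcripts, from 5629 bases (Lamb2) to 14187 bases (Hspg2), which places every one in the longest of 5 bins of equal size (4679 bases and more). Fold changes of all genes followed length. In PLX3X_CD0 against NT the median log2 fold change was -0.247 in the shortest bin and 0.0988 in the longest, where 28.3% of genes were called higher. The same medians were -0.107 and -0.0144 in IR, -0.16 and 0.0193 in PLX3X_CD30 and -0.201 and 0.0339 in PLX1X, each against NT. Between treated groups they were -0.0697 and 0.0629 in PLX3X_CD0 against PLX1X. They ran the other way in PLX3X_CD30 against PLX3X_CD0 (0.088 and -0.0778) and in IR against PLX3X_CD30 (0.0813 and -0.0305). The longest bin, which holds all 10 genes, had more calls than all genes. Against NT 43.6% of it was called in IR, 10.9% in PLX3X_CD30, 37.5% in PLX3X_CD0 and 26.1% in PLX1X. The share was 7.4% in PLX3X_CD0 against PLX1X (6.57% higher), 10.6% in PLX3X_CD30 against PLX3X_CD0 (8.48% lower) and 26% in IR against PLX3X_CD30. An offset fitted in each library to transcript length and GC content brought the medians of all bins to between -0.0455 and 0.00408 in the 4 comparisons with NT. It takes length and GC together, and their shares were not tested apart. GC content of the longest transcripts ran from 47.7% (Lama2) to 60.9% (Hspg2). With the offset, IR against NT moved from 0.10 to 0.06 for Lama2 and from 0.11 to -0.29 for Hspg2.

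With the offset the differences of Fbn1, Lama5 and Agrn in IR and PLX3X_CD0 shrank but kept their direction. Fbn1 stood at a log2 fold change of 0.94 in IR and 0.87 in PLX3X_CD0 against NT. Lama5 stood at 0.56 and 0.81, and Agrn at 0.32 and 0.36, in the same groups. Lamc1 stood at 0.14 to 0.20 in the 4 comparisons with NT and Lamb2 at 0.20 in IR, and none of these values was called with the offset. Lama5 stood at 0.50 for PLX3X_CD0 against PLX1X and at 0.42 for IR against PLX3X_CD30, and both of these calls were lost with the offset. Col4a1 stood at -0.54 in PLX1X, at -0.32 in IR against NT although the CPM of both groups overlapped, and at -0.25 in IR against PLX3X_CD30, where it was 0.01 without the offset. Hspg2 in IR against NT turned from 0.11 to -0.29. Called members with the offset were 3 higher and 1 lower (Col4a1) in IR against NT, beside 22.8% of all genes in that fit, and 1 lower (Col4a1) and none higher in PLX1X against NT, beside 18.9%. In IR against PLX3X_CD30 they were 2 higher and 1 lower (Col4a1), beside 5.65%. They were 3 higher in PLX3X_CD0 against NT, beside 20.2%, and 3 higher in PLX3X_CD0 against PLX1X, beside 1.68%. In PLX3X_CD30 they were 0 against NT, beside 7.02%, and 3 lower against PLX3X_CD0, beside 3.42%. In the longest bin that fit called 35.1% in IR, 11.8% in PLX3X_CD30, 35.4% in PLX3X_CD0 and 26.6% in PLX1X, each against NT. Between treated groups it called 4.85% in PLX3X_CD0 against PLX1X, 8.94% in PLX3X_CD30 against PLX3X_CD0 and 9.66% in IR against PLX3X_CD30. The median of the 10 genes with the offset was 0.13 in IR, 0.01 in PLX3X_CD30, 0.17 in PLX3X_CD0 and -0.04 in PLX1X.

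**Figure D3:**
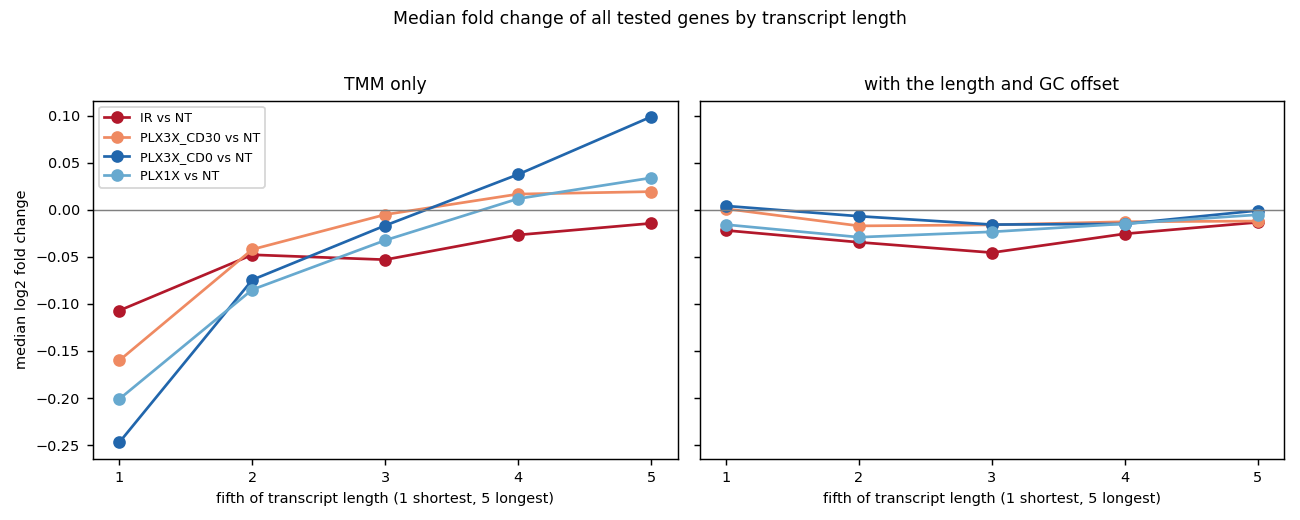
Median log2 fold change (vertical axis) of all tested genes in 5 bins of longest-transcript length (horizontal axis, shortest to longest), for 4 groups against NT. The left panel is the TMM fit, where PLX3X_CD0 runs from -0.247 to 0.0988; the right panel adds the length and GC offset, where the lines lie near 0.

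Some marker genes of cell types also differed between the groups, and their part in the results was not tested. Microglial markers (8 genes, none at 0) summed to 222 to 251 CPM in IR, 223 to 234 in PLX3X_CD30, 26.6 to 52.1 in PLX3X_CD0, 31.8 to 65.7 in PLX1X and 511 to 602 in NT, with 6, 6, 8 and 8 of the 8 called lower in the treated groups in that order. Of all tested genes, 15.4%, 1.84%, 9.53% and 8.12% were called lower against NT in the same order, the background for each marker list here. With the length and GC correction 22.8%, 7.02%, 20.2% and 18.9% were called in either direction. The fitted values of all 8 microglial markers were lower in PLX3X_CD0 than in PLX1X (median log2 fold change -0.51). Of these 1 was called, beside 0.670% of all genes called lower. Endothelial markers (12 genes, none at 0) summed to 217 to 244 CPM in IR, 285 to 312 in PLX3X_CD30, 274 to 293 in PLX3X_CD0, 267 to 294 in PLX1X and 261 to 303 in NT, and 6 of the 12 fell in IR, among them the transporter Slco1a4 (log2 fold change -0.48 ± 0.07, adjusted p = 4.69e-05) and Itm2a (-0.50 ± 0.07, adjusted p = 3.01e-05), both by edgeR. The fitted values of 4 of the 12 were higher in IR than in NT, and 0 were called higher. Among these 4, Cldn5 read 33.1 to 36.9 CPM in IR and 28.9 to 32.7 CPM in NT, with no overlap. With the length and GC correction 1 of the 12 was called lower, Flt1 (-0.43, adjusted p = 0.00299). Slco1a4 (-0.15, adjusted p = 0.113) and Itm2a (-0.14, adjusted p = 0.172) were not called with it. In IR against PLX3X_CD30, 7 of the 12 were called lower (median log2 fold change -0.41), and 5 with the correction (median -0.38). Beside these stood 8.88% of all genes called lower, and 5.65% in either direction with the correction. In bulk tissue, fewer cells of a type and less RNA per cell cannot be told apart. Pericyte and smooth muscle markers (10 genes, of which Tagln was at 0 in 1 PLX3X_CD30 library) summed to 114 to 121 CPM in IR, 105 to 125 in PLX3X_CD30, 122 to 124 in PLX3X_CD0, 106 to 117 in PLX1X and 94.7 to 127 in NT. In IR 2 of 9 tested were called higher and 1 lower, and 1 higher with the correction. PLX3X_CD30, PLX3X_CD0 and PLX1X had 0, 1 and 2 called higher and none lower, unchanged with the correction. Of all genes 15.1%, 4.74%, 12.2% and 9.97% were called higher in IR, PLX3X_CD30, PLX3X_CD0 and PLX1X. Meningeal fibroblast markers (8 genes, none at 0) summed to 104 to 139 CPM in IR, 94.1 to 104 in PLX3X_CD30, 91.3 to 123 in PLX3X_CD0, 90.3 to 98.3 in PLX1X and 57.0 to 161 in NT, and none of the 8 was called against NT in any group. Astrocyte markers (8 genes, none at 0) summed to 2398 to 2542 CPM in IR, 2271 to 2312 in PLX3X_CD30, 2085 to 2393 in PLX3X_CD0, 2216 to 2411 in PLX1X and 2333 to 2794 in NT, with 2, 1, 5 and 3 of the 8 called lower in the treated groups in that order, and 0, 2, 4 and 5 with the correction.

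Choroid plexus markers (7 genes, of which Kcne2 was at 0 in 1 PLX1X library, and none called against NT) set 2 libraries apart, at 509 CPM in IR replicate 1 and 1685 CPM in PLX3X_CD0 replicate 1, against 13.7 to 44.5 CPM in the other 13. Those were the highest Fbn1 libraries of their groups, at 9.93 and 9.69 CPM. Without IR replicate 1 the log2 fold change of Fbn1 in IR against NT was 1.06, and without PLX3X_CD0 replicate 1 that in PLX3X_CD0 against NT was 0.95. The same values were 0.98 and 0.92 for Lama5 and 0.65 and 0.54 for Agrn, all within the SE of the fit with every library.

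Other matrix genes were tested to set these levels in context, with 79 genes in 7 lists, of which 78 were abundant enough. Their adjusted p-values come from edgeR over all tested genes. Against NT, 9 rose and 5 fell in IR, 2 rose and 1 fell in PLX3X_CD30, 9 rose and 8 fell in PLX3X_CD0, and 6 rose and 6 fell in PLX1X. These are 17.9%, 3.85%, 21.8% and 15.4% of the 78, beside 30.6%, 6.57%, 21.7% and 18.1% of all tested genes in the same order. The median log2 fold change of the 78 was 0.13, -0.07, 0.03 and -0.16 in the same order. Between treated groups 2 were higher and 1 lower in PLX3X_CD0 against PLX1X, 2 higher and 2 lower in PLX3X_CD30 against PLX3X_CD0, and 6 higher and 3 lower in IR against PLX3X_CD30, which are 3.85%, 5.13% and 11.5% of the 78, beside 2.46%, 3.80% and 16.5% of all genes. With the length and GC correction the split became 3 higher and 10 lower in IR, 2 and 2 in PLX3X_CD30, 2 and 10 in PLX3X_CD0, and 5 and 8 in PLX1X, each against NT, beside 22.8%, 7.02%, 20.2% and 18.9% of all genes called in that fit. These calls are 16.7%, 5.13%, 15.4% and 16.7% of the 78. Over all 21780 genes that fit called 2675 higher and 2299 lower in IR, and 1007 and 522 in PLX3X_CD30. It called 2327 and 2074 in PLX3X_CD0, and 2321 and 1792 in PLX1X. Between treated groups the split of the 78 became 1 and 1 in PLX3X_CD0 against PLX1X and 5 and 0 in PLX3X_CD30 against PLX3X_CD0. In IR against PLX3X_CD30 it became 1 and 1. These are 2.56%, 6.41% and 2.56% of the 78, beside 1.68%, 3.42% and 5.65% of all genes.

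Among other laminin chains, Lamb1, the beta chain of the most widespread laminin, was called in PLX3X_CD0 against NT (0.36 ± 0.11, adjusted p = 0.0245), but not under the length and GC correction (0.22, adjusted p = 0.123) or with only the 6 libraries compared (0.36, adjusted p = 0.0613). It was also not called without NT replicate 1 (0.26, adjusted p = 0.0932), PLX3X_CD0 replicate 1 (0.31, adjusted p = 0.0996) or PLX3X_CD0 replicate 3 (0.38, adjusted p = 0.0503). Lama1, Lama3, Lamb3 and Lamc3 were not called against NT.

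Among the 7 other basement membrane collagens, Col4a2, the partner chain of Col4a1, was low in the same group. It read 50.0, 49.4 and 49.4 CPM in IR, 46.4, 38.1 and 43.3 CPM in PLX3X_CD30, 48.6, 48.1 and 46.3 CPM in PLX3X_CD0, 27.7, 31.1 and 27.8 CPM in PLX1X and 44.0, 48.0 and 42.6 CPM in NT. As with Col4a1, the 3 PLX1X libraries lay below the other 12. Col4a2 fell by 0.64 ± 0.07 on the log2 scale in PLX1X against NT (adjusted p = 8.56e-06) and was 0.72 ± 0.07 higher in PLX3X_CD0 than in PLX1X (adjusted p = 3.69e-05). Both calls held under every alternative run. The annotated transcripts of Col4a1 and Col4a2 share 22 exonic bases, 0.295% of the exonic bases of Col4a1. No other collagen of the list was called against NT.

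Among the 14 other basement membrane proteins, Sparc, a collagen-binding protein, fell in PLX3X_CD0. It read 165, 195 and 212 CPM in IR, 199, 152 and 177 CPM in PLX3X_CD30, 121, 166 and 124 CPM in PLX3X_CD0, 222, 213 and 129 CPM in PLX1X and 328, 221 and 276 CPM in NT. All PLX3X_CD0 libraries lay below NT, at a log2 fold change of -1.01 ± 0.23 (adjusted p = 0.00886). All IR and PLX3X_CD30 libraries also lay below NT, and PLX1X overlapped with it, but Sparc was not called in these groups. Smoc2, a relative of Sparc, rose in IR against NT (0.72 ± 0.16, adjusted p = 0.00341), and so did nephronectin (Npnt), an integrin ligand (0.60 ± 0.15, adjusted p = 0.00775). These 3 calls held under every alternative run.

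The 15 microfibril and elastic fibre genes, the relatives and partners of Fbn1, had 2 members that rose in IR against NT, both latent TGF-beta binding proteins. Ltbp4 read 87.1, 92.8 and 86.3 CPM in IR, 78.5, 71.6 and 75.1 CPM in PLX3X_CD30, 84.8, 84.2 and 80.0 CPM in PLX3X_CD0, 68.3, 71.2 and 72.0 CPM in PLX1X and 47.4, 68.4 and 60.4 CPM in NT. IR and PLX3X_CD0 were highest, but unlike Fbn1, Ltbp4 also lay above NT in every PLX3X_CD30 library. Ltbp4 rose by 0.59 ± 0.09 in IR (adjusted p = 6.89e-05) and by 0.49 ± 0.09 in PLX3X_CD0 (adjusted p = 0.000504). It also rose by 0.35 ± 0.09 in PLX3X_CD30 (adjusted p = 0.0235) and by 0.26 ± 0.09 in PLX1X (adjusted p = 0.0496). These last 2 calls were each lost without at least 1 library. With the offset it stood at 0.39 in PLX3X_CD0, 0.34 in PLX1X and 0.31 in PLX3X_CD30, all called (adjusted p = 0.000891, 0.00351 and 0.0176). In IR it stood at 0.19 and was not called (adjusted p = 0.0776). Ltbp3 rose by 0.52 ± 0.09 in IR against NT (adjusted p = 0.000147) and by 0.49 ± 0.09 in IR against PLX3X_CD30 (adjusted p = 0.000802), and neither was called with the offset (adjusted p = 0.0558 and 0.0716). Fbn2, the other fibrillin, averaged 3.51 ± 0.982 CPM in IR, 2.65 ± 0.711 CPM in PLX3X_CD30, 3.49 ± 1.21 CPM in PLX3X_CD0, 1.96 ± 0.430 CPM in PLX1X and 3.87 ± 1.66 CPM in NT (SD, n = 3 each). It was called against NT in PLX1X and in no other treated group, and there fell by 1.00 ± 0.32 on the log2 scale (adjusted p = 0.0374). That call was lost with the replicate block (-0.93, adjusted p = 0.0562), with only the 6 libraries compared (-0.99, adjusted p = 0.0644) and without NT replicate 3 (-0.56, adjusted p = 0.219), PLX1X replicate 2 (-0.96, adjusted p = 0.106) or PLX1X replicate 3 (-0.87, adjusted p = 0.145).

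Receptors moved in both directions. Itga6, the alpha-6 integrin that binds laminin, read 16.7, 17.6 and 16.6 CPM in IR, 23.1, 23.2 and 19.3 CPM in PLX3X_CD30, 16.7, 19.9 and 17.7 CPM in PLX3X_CD0, 18.5, 20.0 and 19.6 CPM in PLX1X and 24.4, 26.6 and 27.3 CPM in NT. Every treated library lay below every NT library. Itga6 fell by 0.63 ± 0.09 in IR (adjusted p = 2.88e-05), by 0.53 ± 0.09 in PLX3X_CD0 (adjusted p = 0.000177) and by 0.44 ± 0.09 in PLX1X (adjusted p = 0.00149) on the log2 scale, and in PLX3X_CD30 its log2 fold change was -0.26 ± 0.09 (adjusted p = 0.0748). Those 3 calls held under every alternative run, as did the falls in IR against NT of Itgb1, its beta partner in many cells (-0.31 ± 0.05, adjusted p = 0.000183), and of the collagen and laminin receptor chain Itga1 (-0.59 ± 0.15, adjusted p = 0.00486). Itga3, another laminin receptor chain, rose by 0.37 ± 0.08 in IR (adjusted p = 0.00165) and by 0.35 ± 0.08 in PLX3X_CD0 (adjusted p = 0.00354), and dystroglycan (Dag1) rose by 0.28 ± 0.06 in PLX3X_CD0 (adjusted p = 0.00239). None of these 3 values was called with the offset (adjusted p = 0.585, 0.0555 and 0.0512). In PLX1X against NT Itga3 rose by 0.25 ± 0.08 (adjusted p = 0.036) and Dag1 by 0.22 ± 0.06 (adjusted p = 0.0149). With the offset these stood at 0.26 (adjusted p = 0.0354) and 0.17 (adjusted p = 0.012), both called. Each of these PLX1X calls was lost without at least 1 library.

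Enzymes that build or cut the matrix were mostly lower where they were called. Mmp14, a membrane-bound metalloprotease, read 23.0, 22.0 and 25.7 CPM in IR, 21.3, 20.0 and 20.3 CPM in PLX3X_CD30, 15.9, 20.3 and 16.2 CPM in PLX3X_CD0, 18.1, 15.6 and 16.7 CPM in PLX1X and 22.5, 27.1 and 31.0 CPM in NT. It fell by 0.63 ± 0.11 in PLX3X_CD0 (adjusted p = 0.000389) and by 0.68 ± 0.11 in PLX1X (adjusted p = 0.000297) against NT on the log2 scale, whereas IR overlapped with NT. P4ha1, a collagen prolyl hydroxylase, fell by 0.56 ± 0.13 in IR (adjusted p = 0.00381) and by 0.54 ± 0.12 in PLX3X_CD0 (adjusted p = 0.00632). The collagen lysyl hydroxylases Plod1 (-0.39 ± 0.08, adjusted p = 0.00136) and Plod3 (-0.30 ± 0.08, adjusted p = 0.00743) fell in PLX3X_CD0 against NT. Each of these 6 calls held under every alternative run. Of the 9 interstitial matrix genes only Col6a2, a type VI collagen chain, was called against NT, in IR (0.53 ± 0.14, adjusted p = 0.0082) and PLX3X_CD0 (0.43 ± 0.14, adjusted p = 0.0355), and neither value was called with the offset (adjusted p = 0.107 and 0.114). The PLX3X_CD0 call was also lost with the replicate block (0.44, adjusted p = 0.0538) and without any single library but NT replicate 2 (0.32 to 0.47, adjusted p of up to 0.126).

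**Figure D4:**
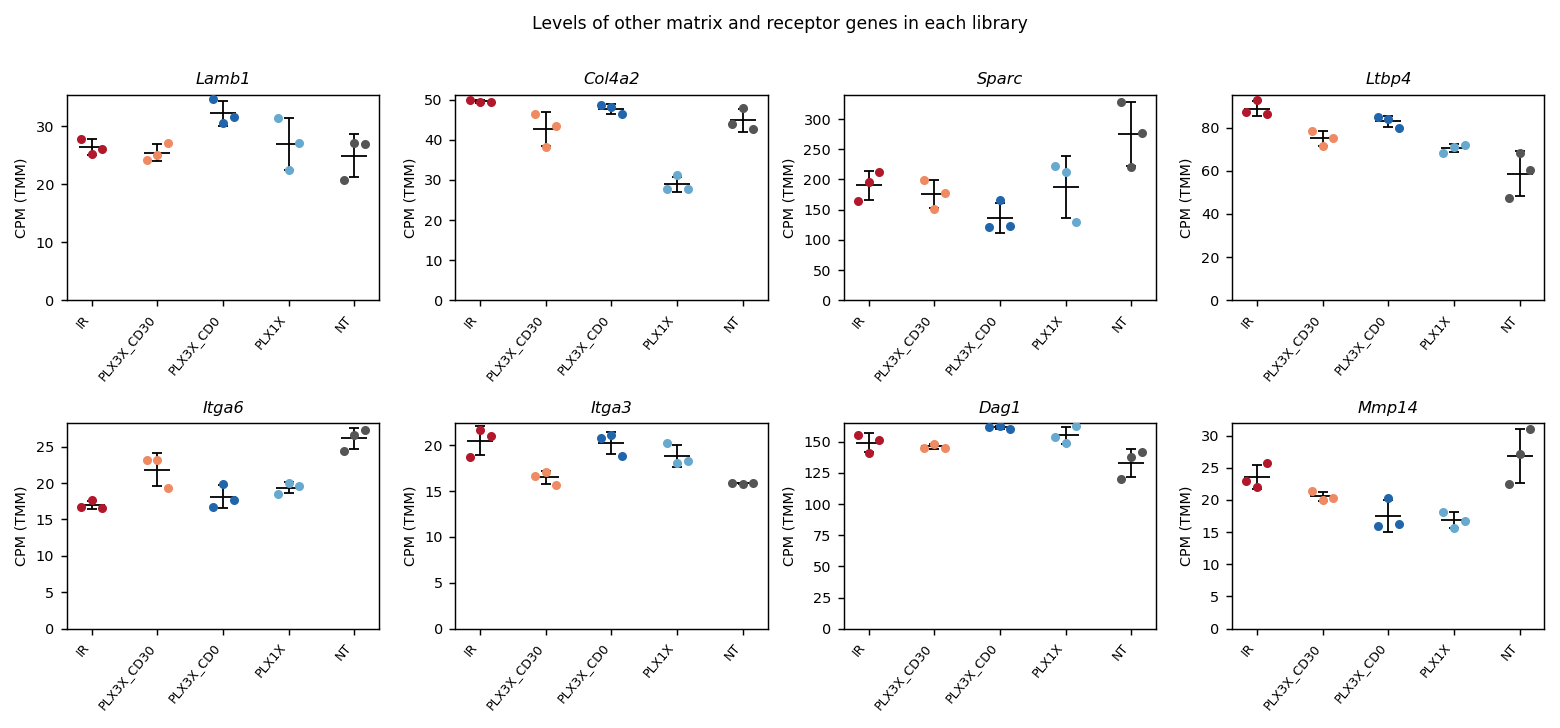
CPM after TMM scaling (vertical axes, linear, from 0) of 8 other matrix and receptor genes in each library, grouped along the horizontal axes. Points are libraries and black bars give mean ± SD of 3; Col4a2 is low in PLX1X (27.7 to 31.1 CPM) and Itga6 is highest in NT (24.4 to 27.3 CPM).

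Across the 15 libraries the 10 genes were linked to different degrees. Pearson's r of their log2 CPM was highest between Fbn1 and Agrn (0.899) and between Lama5 and Agrn (0.898), and lowest between Nid1 and Lama5 (0.0593). Among 13882 other genes with a mean log2 CPM of at least 1, those whose levels were most like the mean of the 10 included Flna (r = 0.937), Endov (0.924), and Slc12a7 and Dock6 (both 0.92). The 5 most like Fbn1 were Plcg1 (0.938), Ackr2 (0.918), Grk3 (0.916), Mta3 (0.913) and Tenm2 (0.903). These are descriptions over libraries that share groups, depth and the length trend, and each gene was picked as the most alike of many.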

How the data were processed

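The authors deposited a table of raw counts per gene for 15 libraries, with CPM values that were not used here. Per the labels' protocols, RNA came from a lipid-tissue kit and cDNA from a SMARTer Ultra Low kit, which does not mark strand. The submitters' processing notes name mm10 as the build, and DRAGEN and DESeq2 as tools. Their versions and roles and the annotation counted are not stated in the labels or headers. Low counts (1 to 4) were even in 70.6% to 74.7% of cases, depending on the library, so both mates of a pair may often have been counted.

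Of 55774 rows, 287 identical repeats were removed. Libraries were grouped by library name and replicates numbered by title. edgeR 4.0.16 (R 4.3.3) used TMM factors, filterByExpr, 1 mean per group over all 15 libraries (biological coefficient of variation 12.1%) and robust quasi-likelihood F-tests (two-sided) for 7 comparisons, adjusted by Benjamini-Hochberg over 21780 genes with a threshold of 0.05. The SE was derived from each log2 fold change and its F. The procedure was tested on simulated data. Positions, lengths and GC content came from GENCODE M21 on mm10, with a transcript for 99.9% of tested genes.

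The 10 genes and all lists were chosen with earlier results of these data known. Named genes of the 7 other matrix lists are up to 4 per list and comparison with the smallest adjusted p. Alternatives were a fit by DESeq2 1.42.0, scaling by RLE, all genes unfiltered, CPM of at least 1 in 3 libraries, only the 6 libraries compared, a block for the replicate number, a loess offset (span 0.3) on length and GC content, and leaving out each library. A Pearson correlation of log2 CPM (prior count 2) chose the most alike genes. Some genes that the naming rule picked are not reported here, though counts over lists include them.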

Additional observations from a re-analysis of the deposited data

How the results depend on the processing

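No fold change of the 10 genes that was called in the TMM fit of all libraries changed sign. Among the 70 fitted values at 2 decimals, 10 changed sign with the length and GC offset, the largest of them Hspg2 in IR against PLX3X_CD30 (0.31, and -0.07 with the offset), and 1 of these, Col4a1 in IR against PLX3X_CD30 (0.01, and -0.25 with the offset), was then called lower. Another 1 changed sign with CPM of at least 1 in 3 libraries. With a library left out 19 of 420 changed sign, none of them above 0.19 in size. The 70 log2 fold changes of the 10 genes moved by more than the spread between replicates in 24 cases with the length and GC offset, in 1 each with DESeq2 and RLE size factors, and in none with a library left out, the replicate block, another filter or the 6 libraries compared.

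Counts of called members were 2 for PLX1X against NT, and 1 with CPM of at least 1 in 3 libraries, with the offset or with only the 6 libraries compared. Leaving out a library gave 1 to 2 members there and 0 to 1 for PLX3X_CD30 against NT, where the full count was 0.

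Counts of called matrix genes outside the 10 moved by over 1.5 times as follows. For PLX1X against NT they were 12, but 5 with the 6 libraries and 7 to 15 with a library left out. For PLX3X_CD0 against NT they were 17, but 11 with the 6 libraries. For PLX3X_CD30 against NT they were 3, but 8 without a filter, 1 with the 6 libraries, 6 with DESeq2 and 1 to 6 with a library left out. For IR against NT they were 14, and 11 to 23 with a library left out, the 23 without NT replicate 2. For PLX3X_CD0 against PLX1X they were 3, but 16 without a filter and 6 with DESeq2. For PLX3X_CD30 against PLX3X_CD0 they were 4, but 9 without a filter and 0 to 2 with a library left out. For IR against PLX3X_CD30 they were 9, but 19 without a filter, 2 with the offset, 20 with the 6 libraries and 2 to 7 with a library left out.

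Over all genes, PLX1X against NT had 3939 calls and 2143 with the 6 libraries, PLX3X_CD0 against NT 4732 and 2601, and PLX3X_CD30 against NT 1432 and 359, or 608 to 1714 with a library left out. PLX3X_CD0 against PLX1X had 536 (390 higher), but 1186 without a filter, 1066 with DESeq2 (651 higher) and 150 to 289 with a library left out, and the offset gave 176 higher and 189 lower. PLX3X_CD30 against PLX3X_CD0 had 828 (407 higher), but 1395 without a filter and 384 to 563 with a library left out, and the offset gave 469 higher and 275 lower. IR against PLX3X_CD30 had 3597, but 1231 with the offset and 1975 to 3526 with a library left out.

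Calls of some further matrix genes each ended without at least 1 library. In PLX1X against NT these were Plod1, Timp2, Ltbp4, Npnt, Frem2, Dag1 and Itga3, with adjusted p up to 0.196 (Frem2 without PLX1X replicate 1). In PLX3X_CD0 against NT they were Pxdn and Npnt (up to 0.123, Npnt without NT replicate 1), in PLX3X_CD30 against NT Mmp14 and Ltbp4 (up to 0.138, Mmp14 without NT replicate 3), and in IR against NT Plod2 (up to 0.0827, without IR replicate 3). The cause of these losses was not tested. The fall of Itgb1 in PLX3X_CD0 against NT held without each library but not without a filter (adjusted p = 0.0923) or with the 6 libraries (0.0529). Between treated groups, calls lost without a library were P4ha1 and Pxdn in PLX3X_CD0 against PLX1X (up to 0.185), Plod3, P4ha1, Col4a5 and Itga3 in PLX3X_CD30 against PLX3X_CD0 (up to 0.194), and P4ha1, Adamts1, Fbln1, Col4a5, Col4a2, Itga3 and Itgb1 in IR against PLX3X_CD30 (up to 0.219). All of these p-values are edgeR's.

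No clear pairing of libraries by replicate number was seen, though these correlations cannot show whether libraries were paired by design. Deviations from the group mean correlated at over 0.1 in 4 of 30 same-numbered pairs, with a median of 0.00176. Among pairs with other numbers it was 5 of 60, with a median of -0.00422. With the replicate block, calls among the other matrix genes in PLX3X_CD30 against PLX3X_CD0 were 2 in place of 4, and no other count of calls moved by over 1.5 times.

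With 3 libraries per group, Hspg2, at 42 to 144 counts, had an SE of 0.27 or 0.28. Its largest log2 fold change, 0.78 ± 0.27 for PLX3X_CD0 against PLX1X, was not called. NT replicate 1, at 19249641 counts, was the shallowest library.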
